A study of Mus musculus with 6 samples.

Results

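The 6 genes Twist1, Twist2, Snai1, Snai2, Zeb1 and Zeb2, which encode the Twist, Snail and Zeb transcription factors, were followed in sorted osteoblasts (OBs) of ectopic bone. They were chosen by gene symbol and are 6 of the 23284 genes listed for every sample. All 6 were expressed in every sample on both days. None of the 6 differed between day 10 and day 14 beyond the spread between samples, and the spread within a day was wide for Twist2, Snai1 and Snai2.

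The OBs came from male Col2.3-ECFP mice of 12 to 16 weeks, which carried a collagen sponge with 2.5 μg of BMP-2 under the skin of the back. All samples share this transgene and this treatment, and the groups were 3 samples of day 10 and 3 of day 14 after implantation. The ECFP reporter is driven by a fragment of the type I collagen promoter, so the sort collects cells in which that promoter is active, whatever their shape. Dead cells and CD45+ cells had been excluded at the sort. Bone pieces received 1 collagenase digestion on day 10 and 2 on day 14, so that digestion and day cannot be told apart. The titles place all later samples on day 14, whereas the free-text descriptions give day 14, 15 and 16 for replicates 1, 2 and 3. The samples are called biological replicates, and nothing states how many animals each held.

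Twist1 and Twist2 are basic helix-loop-helix proteins that bind DNA as dimers, often with an E protein, and can hold back the osteoblast factor Runx2. Snail and Zeb proteins are zinc-finger repressors that bind short DNA words called E-boxes and recruit corepressors to epithelial genes such as Cdh1, which encodes E-cadherin. In embryos, wound repair and tumours the 3 families help cells give up epithelial contacts and take a spindle shape, and in the skeleton they act in cells that are already mesenchymal. Day 10 and day 14 were compared in the study because OBs in this model are spindle-shaped when they arrive and cuboid later. Shape was seen by imaging and was not measured in the samples sequenced, so no value below is matched to the shape of the same cells.

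Expression is given as FPKM, which is fragments scaled to transcript length and to the mapped reads of the sample and allows levels of different genes to be compared. From the steps between low values, 4531927 to 7753522 reads a sample were estimated, and 3 reads on a transcript of 1 kilobase corresponded to 0.387 to 0.662 FPKM. Against the OB label, Col1a1, the main collagen of bone, was between 14151 and 34157 FPKM in all samples, and Ibsp, a bone matrix protein, between 1293 and 25254 FPKM. Other OB markers were low in day 14 replicates 1 and 3. Alpl, the bone alkaline phosphatase, was at 273 and 186 FPKM there, against 809 to 1300 FPKM in the other 4 samples, and the osteoblast factor Dlx5 was at 0.979 and 1.01 FPKM, against 7.56 to 9.88 FPKM. In replicate 3 the lowest Ibsp value lay below the 2478 FPKM of Dcn, a matrix gene of the fibroblast list. Day 14 replicate 2 differed from the other day 14 samples and was near day 10 in Alpl and Dlx5. Its 10 chondrocyte markers summed to 2397 FPKM, against 231 and 172 FPKM in the other day 14 samples and 756 to 1581 FPKM on day 10. Its 10 myeloid markers summed to 21.7 FPKM, against 256 and 618 FPKM in the other day 14 samples and 41.5 to 154 FPKM on day 10. Differences that this sample moved strongly are therefore given with and without it. Leaving it out keeps only the day 14 samples that were low in Alpl and Dlx5. In such bulk samples, fewer cells of a type and less RNA per cell cannot be told apart.

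In the mm10 build, Twist1 lies on the plus strand at chr12:33957671-33959829 and Twist2 on the plus strand at chr1:91801461-91848028. Snai1 lies on the plus strand at chr2:167538195-167542814 and Snai2 on the plus strand at chr16:14705852-14709385. Zeb1 lies on the plus strand at chr18:5591860-5775467 and Zeb2 on the minus strand at chr2:44983632-45117395. All 6 are protein-coding genes, and each value is for the gene as a whole, not for an exon or isoform. The antisense transcripts Gm29100 and Zeb2os overlap Twist2 and Zeb2, and Gm10125 lies opposite Zeb1. Whether reads were counted by strand is not given in the sources used here, so reads of these partners cannot be told apart from those of the genes.

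Snail genes made up most of the expression of the 6. Snai1 and Snai2 together held 66.7% ± 5.99 of the summed FPKM of the 6 genes on day 10 and 61.0% ± 8.01 on day 14 (SD, n = 3 each). The Zeb genes held 16.3% ± 2.38 and 21.3% ± 3.03, and the Twist genes 17% ± 3.71 and 17.7% ± 5.06. Snai1 was the highest of the 6 in 5 of 6 samples, and Snai2 was highest in day 10 replicate 3. These were the highest and next highest members in every sample. Below them the order changed from sample to sample: Twist2 was lowest in 3 samples, Zeb1 in 2 and Twist1 in 1. Snai1 stood in the upper 5.29% to 10.8% of all genes listed, and Twist2 in the upper 19.3% to 42.0%.

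**Figure D1:**
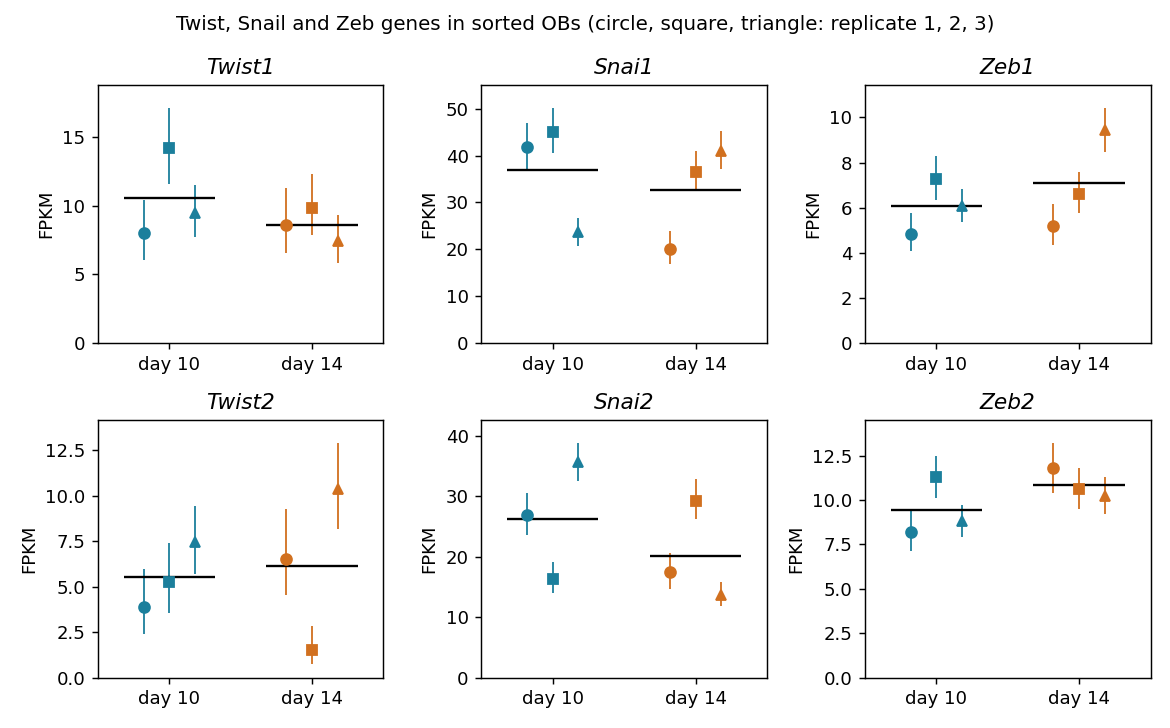
FPKM of each gene (y axis, from 0) in the 3 samples of day 10 (blue) and the 3 of day 14 (orange). Vertical bars are 95% Poisson intervals of the estimated reads and cover counting error only, and black lines are day means. The samples of the days overlap for all 6 genes, and Twist2 has its lowest and its highest value on day 14.

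Twist1, which is needed for the cranial mesenchyme and delays osteoblast maturation in the skull, was at 8.03, 14.2 and 9.47 FPKM in day 10 replicates 1, 2 and 3. On day 14 it was at 8.61, 9.83 and 7.46 FPKM. Only day 10 replicate 2 lay above the range of the other day, and the remaining samples overlapped. The mean was 10.6 ± 3.21 FPKM on day 10 and 8.63 ± 1.19 FPKM on day 14 (SD, n = 3 each, as for the means below). On the log2(FPKM + 0.1) scale the difference was -0.26 (SE 0.24, adjusted p = 0.798, limma), with a 95% interval from -0.81 to 0.30.

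Twist2, also called Dermo1 and known from dermis and early bone-forming cells, was at 3.88, 5.26 and 7.44 FPKM on day 10. On day 14 it was at 6.53, 1.53 and 10.4 FPKM. The day 14 samples thus bracketed all those of day 10. Replicate 2 of day 14 held about 10 reads of the gene, with a 95% Poisson interval from 0.734 to 2.82 FPKM, and replicate 3 about 80 reads, with an interval from 8.20 to 12.9 FPKM, so counting error does not span the gap between them. The mean was 5.53 ± 1.79 FPKM on day 10 and 6.15 ± 4.44 FPKM on day 14. The mean log2 difference was -0.17 (SE 0.62, adjusted p = 0.965, limma), while the log2 ratio of arithmetic means was 0.15, so the direction depended on the scale. Without day 14 replicate 2 the difference was 0.62 with an adjusted p of 0.512 from limma. The interval from -1.58 to 1.24 was the widest of the 6.

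Snai1, the Snail protein, measured 41.9, 45.1 and 23.6 FPKM on day 10 and, on day 14, 20.1, 36.6 and 41.1 FPKM. High and low samples occurred on both days, and 4 of the 6 samples lay above 36 FPKM. The mean was 36.8 ± 11.6 FPKM and 32.6 ± 11 FPKM. The log2 difference was -0.19 (SE 0.33, adjusted p = 0.909, limma) with an interval from -0.93 to 0.56. Without day 14 replicate 1 it was 0.13, and without day 14 replicate 2 it was -0.30.

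Snai2, also called Slug, measured 26.9, 16.3 and 35.6 FPKM on day 10 and, on day 14, 17.5, 29.3 and 13.7 FPKM. The samples alternated between the days, with the lowest on day 14 and the highest on day 10. The mean was 26.3 ± 9.65 FPKM and 20.2 ± 8.15 FPKM. The log2 difference was -0.38 (SE 0.34, adjusted p = 0.785, limma) with an interval from -1.17 to 0.41, and it was -0.69 without day 14 replicate 2, with an adjusted p of 0.416.

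Zeb1 measured 4.85, 7.27 and 6.07 FPKM on day 10 and, on day 14, 5.19, 6.62 and 9.42 FPKM. Only day 14 replicate 3 lay above day 10. The mean was 6.06 ± 1.21 FPKM and 7.08 ± 2.15 FPKM, and the log2 difference was 0.20 (SE 0.27, adjusted p = 0.871, limma) with an interval from -0.42 to 0.81. Without day 14 replicate 3 it was -0.03.

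Zeb2, which is required in the neural crest and binds Smad proteins, measured 8.19, 11.3 and 8.79 FPKM on day 10 and, on day 14, 11.8, 10.6 and 10.2 FPKM. It was the steadiest of the 6, with its highest sample 1.43 times its lowest, against 6.80 times for Twist2. Replicates 1 and 3 of day 10 lay below all of day 14, and replicate 2 lay inside the day 14 range. The mean was 9.42 ± 1.64 FPKM and 10.9 ± 0.805 FPKM. The log2 difference was 0.21 (SE 0.19, adjusted p = 0.776, limma) with an interval from -0.21 to 0.64.

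After adjustment, 0 of the 6 genes passed 0.05 in the limma fit, against 0.0154% of the 19526 genes tested. All 6 had passed the filter on low values, a mean above 0.1 FPKM. At an unadjusted p under 0.05 the members again counted 0, against 10.0% of all genes, and in 0 of 6 did the samples of the days separate, against 14.3%. Zeb1 and Zeb2 had the higher mean log2 level on day 14 and the other 4 genes the lower, with a median log2 difference of -0.18 beside -0.04 over all genes tested. By two-sided exact permutation tests of single genes, p ran from 0.30 for Zeb2 to 0.90 for Twist2, where 3 samples against 3 allow 0.1 at the least. A p above the threshold does not show equal levels. As ratios of day 14 to day 10, the 95% intervals ran from 0.865 to 1.56 for Zeb2, the narrowest, and from 0.333 to 2.37 for Twist2.

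**Figure D2:**
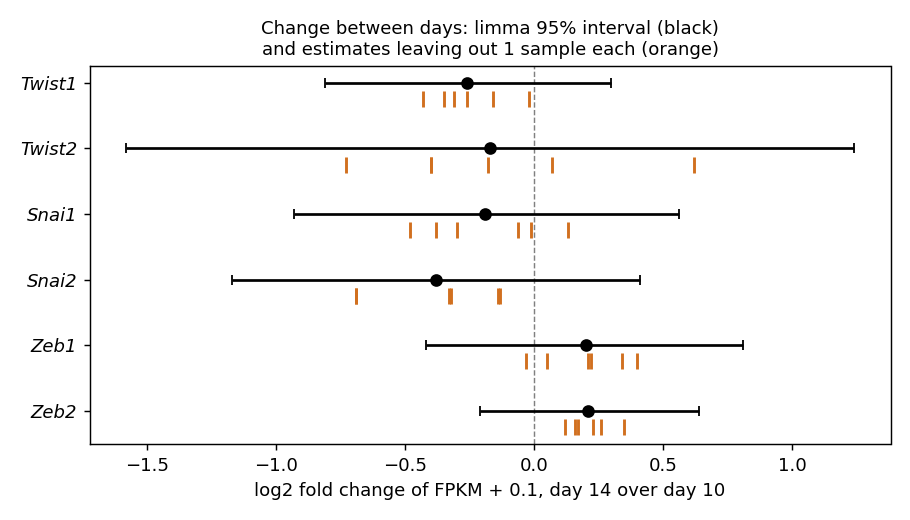
Log2 fold change of FPKM + 0.1 (x axis, day 14 over day 10) for each gene, with the limma 95% interval in black and the estimates that leave out 1 of the 6 samples each as orange ticks. All 6 intervals include 0, and the ticks of Twist2 run from -0.73 to 0.62.

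Within families, the ratio of the paralogs in a sample does not depend on how the sample was scaled. Zeb2 was above Zeb1 in 6 of 6 samples, at 1.08 to 2.26 times its FPKM. Twist2 was below Twist1 in 5 of 6 samples, from 0.155 times in day 14 replicate 2 to 0.785 times in day 10 replicate 3, and above it, at 1.39 times, in day 14 replicate 3. Snai2 was below Snai1 in 5 of 6 samples, from 0.334 to 0.867 times, and at 1.51 times in day 10 replicate 3. Between the days the mean log2 ratio differed by 0.09 for Twist2 over Twist1, by -0.20 for Snai2 over Snai1 and by 0.02 for Zeb2 over Zeb1. The two-sided exact permutation p was 1.00, 0.90 and 0.90, and 1.00 each after adjustment over the 3 ratios. Without day 14 replicate 2, the Twist ratio differed by 0.97, with a two-sided exact permutation p of 0.400 before adjustment, and the Snail ratio by -0.39 with 0.800.

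**Figure D3:**
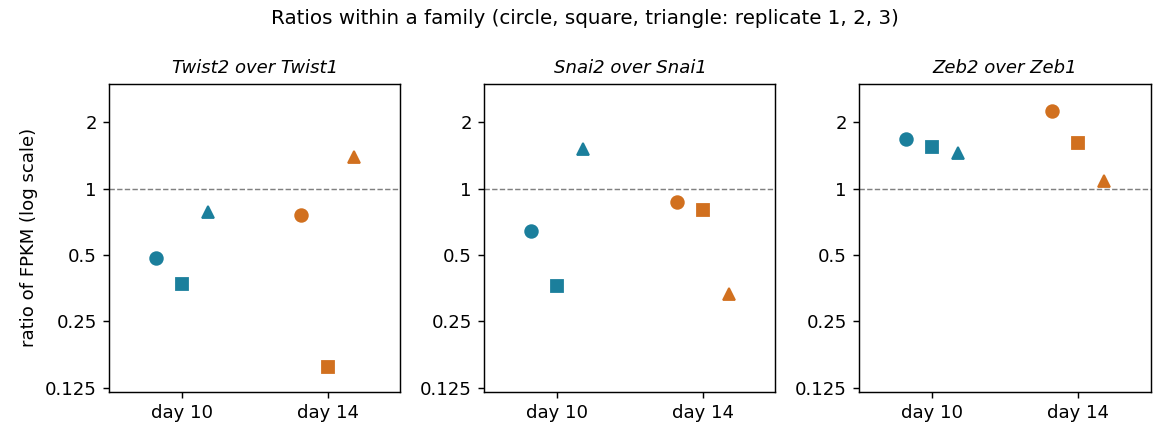
Ratio of FPKM between the members of each family in each sample (y axis, log scale), with day 10 in blue and day 14 in orange. The dashed line marks equal FPKM; all 6 Zeb ratios lie above it, while the Twist and Snail ratios lie on both sides.

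Across the 6 samples the members did not share a pattern. Pearson's r of log2(FPKM + 0.1) between pairs of members ran from -0.620 for Snai2 with Zeb2 to 0.447 for Snai1 with Zeb1. These values describe 6 samples that differ in day, digestion and depth. Among 10907 genes above 0 in every sample and at a mean of at least 1 FPKM, the highest r with Twist1 was that of Pusl1 (0.980), followed by Eefsec (0.979) and Car12 (0.976). With Twist2 these were Gm14403 (0.988), Asl (0.985) and Traf6 (0.981), and with Snai1 they were Fbln7 (0.992), Stau1 (0.986) and Nacc1 (0.986). With Snai2 they were Ndufa10 (0.983), Aurkaip1 (0.980) and Cela1 (0.965), with Zeb1 Gramd3 (0.992), Ebna1bp2 (0.990) and Ndufaf4 (0.988), and among those with Zeb2 were Lpin1 (0.986) and 1700112E06Rik (0.977). Between 30 and 190 genes had an r above 0.9 with a given member, so a high r over so few samples was common.

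Close relatives of the families were low. Of 10 relatives, 9 had a mean under 1 FPKM, among them Snai3, which was listed at 0 in 4 samples and at 0.317 and 0.244 FPKM in day 14 replicates 1 and 2. The exception was Scx, the tendon factor scleraxis, at 12.1, 6.07 and 9.82 FPKM on day 10 and 6.36, 8.90 and 4.12 FPKM on day 14. Its log2 difference was -0.54 (adjusted p = 0.664, limma) and the days overlapped.

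Over 9 lists of partners, regulators and targets with 114 genes in all, 101 were tested and 0 had an adjusted p under 0.05 from limma. At an unadjusted p under 0.05, 9 were higher and 5 lower on day 14, or 13.9% beside 10.0% of all genes. Without day 14 replicate 2 this count was 26, and without day 10 replicate 1 it was 7. The E proteins Tcf3, Tcf4 and Tcf12, with which Twist proteins pair, were between 12.6 and 17.2 FPKM in all samples. Of the Id proteins, which take E proteins out of such pairs, Id3 was the most abundant, at 446 to 852 FPKM. Id1 measured 49.6, 36.4 and 41.6 FPKM on day 10 and, on day 14, 16.2, 35.9 and 16.1 FPKM. All day 14 samples were below those of day 10, replicate 2 only just. Its log2 difference was -1.0 (unadjusted p = 0.0112, adjusted p = 0.360, limma), and -1.38 without day 14 replicate 2, with an adjusted p of 0.0340. That fit kept only day 14 replicates 1 and 3, which were low in the OB markers Alpl and Dlx5. In it 76 genes in all passed an adjusted 0.05, against 3 with all samples.

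Of 16 corepressors and chromatin partners, all were above 1 FPKM in every sample. Ctbp1, which binds Zeb proteins, was at 47.2 to 57.2 FPKM, with a log2 difference of -0.03. Ajuba, a LIM protein that joins Snail to its repressor complex and is listed as Jub, measured 5.76, 5.18 and 5.80 FPKM on day 10 and, on day 14, 2.65, 5.16 and 3.0 FPKM, again with replicate 2 near day 10 (log2 difference -0.67, unadjusted p = 0.0424, adjusted p = 0.479, and -0.96 with an adjusted p of 0.144 without that sample). Among 9 kinases and ubiquitin ligases that act on the proteins, 1 passed an unadjusted 0.05, near the share of 10.0% of all genes. This was Fbxo11, part of a ligase for Snail proteins. It measured 3.59, 2.63 and 2.36 FPKM on day 10 and, on day 14, 4.08, 5.67 and 4.20 FPKM (log2 difference 0.69, adjusted p = 0.443).

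Among 13 signals and factors known to induce the family, 4 passed an unadjusted p of 0.05, beside 10.0% of all genes in either direction. All 4 had higher values on day 14, and 0 passed after adjustment. The TGF-β receptor gene Tgfbr1 measured 8.56, 9.72 and 8.23 FPKM on day 10 and, on day 14, 11.5, 12.9 and 12.6 FPKM, without overlap (log2 difference 0.48, adjusted p = 0.395, limma). For Tgfbr2, Stat3 and Wwtr1 the log2 differences were 0.83, 0.46 and 0.44, with adjusted p of 0.443, 0.452 and 0.449. Tgfbr2 and Stat3 overlapped between the days. Tgfb1, Smad3 and Hmga2, the last near the floor, went the other way, with log2 differences of -0.79, -0.28 and -0.39. The median log2 difference of the list was 0.44, beside -0.04 for all genes and -0.18 for the 6 factors.

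Epithelial genes, some of which Snail and Zeb proteins are known to repress, were mostly at or near the floor of these libraries. Of 20 epithelial genes, 19 had a mean under 1 FPKM, and only Jup, which encodes plakoglobin, was higher, at 2.55 to 5.96 FPKM. Cdh1 measured 0.243, 0.475 and 0.275 FPKM on day 10 and, on day 14, 0.572, 0 and 0.135 FPKM, and the keratin gene Krt18 was at 0 in 4 samples and at most 0.183 FPKM. At such levels a change between the days was not detectable at this depth. Of 14 mesenchymal genes, 0 had a mean under 1 FPKM over the 6 samples, and their levels ranged from Foxc2, at 0.695 to 2.54 FPKM, to Fn1 and Mmp2, which reached 1471 and 1468 FPKM. Vim, the intermediate filament vimentin, measured 725, 911 and 889 FPKM on day 10 and, on day 14, 1034, 1120 and 1219 FPKM, which did not overlap (log2 difference 0.42, adjusted p = 0.584, limma). Cdh2, or N-cadherin, measured 31.4, 23.1 and 18.8 FPKM on day 10 and, on day 14, 13.5, 24.1 and 8.70 FPKM (log2 difference -0.75, adjusted p = 0.536, and -1.13 and 0.138 without day 14 replicate 2), while Cdh11, the osteoblast cadherin, was at 116 to 143 and 169 to 201 FPKM (log2 difference 0.57, unadjusted p = 0.00652, adjusted p = 0.327). Pdgfrb and Axl, receptor tyrosine kinases, differed by 0.88 and 1.12, with adjusted p of 0.305 and 0.361, and Axl by 1.52 without day 14 replicate 2 (adjusted p = 0.0617).

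Polarity genes did not behave as a unit. Crb3, an apical protein whose gene is a known Zeb1 and Snail target, was listed at 0 in 5 samples and at 0.178 FPKM in day 14 replicate 2, while its partner Pals1, listed as Mpp5, measured 4.08, 4.66 and 5.71 FPKM on day 10 and, on day 14, 8.73, 8.73 and 7.81 FPKM. The Pals1 log2 difference was 0.81 (unadjusted p = 0.00359, adjusted p = 0.305, limma) without overlap. Pard6g went the other way, by -0.82 (adjusted p = 0.460), and by -1.17 without day 14 replicate 2 (adjusted p = 0.108). Of the osteoblast genes tied to the family, Runx2, whose action Twist proteins restrain, measured 23.3, 26.7 and 13.2 FPKM on day 10 and, on day 14, 10.5, 19.4 and 7.00 FPKM (log2 difference -0.83, adjusted p = 0.528, and -1.22 and 0.164 without day 14 replicate 2). Sp7, which acts after Runx2, was at 73.7, 51.1 and 40.1 FPKM and at 9.79, 27.9 and 4.09 FPKM, without overlap (-2.34, adjusted p = 0.309). Dlx5 differed by -1.91 (adjusted p = 0.460). Without day 14 replicate 2 these were -3.05 for Sp7 and -2.97 for Dlx5, with adjusted p of 0.0329 and 0.0102 from limma. These calls thus depended on leaving out day 14 replicate 2, in which Dlx5 was near day 10. They rest on day 14 replicates 1 and 3, in which the OB marker Alpl was low as well. Whether day or the make-up of these samples lies behind them was not tested.

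**Figure D4:**
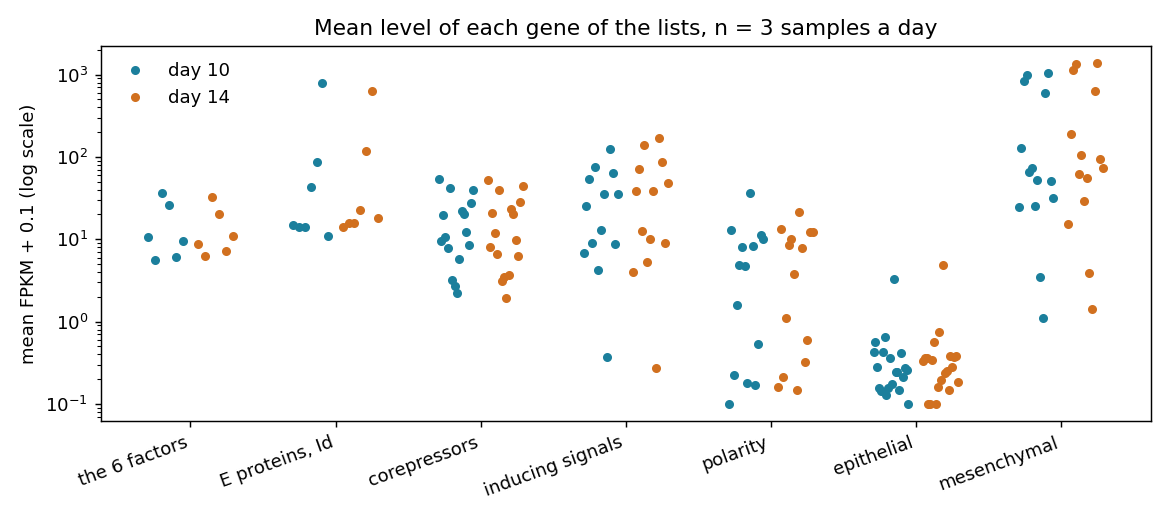
Mean FPKM + 0.1 (y axis, log scale) of each gene of 7 lists on day 10 (blue) and day 14 (orange), n = 3 samples a day. The 6 factors lie between 5.53 and 36.8 FPKM on both days, 19 of 20 epithelial genes average under 1 FPKM over the 6 samples, and the mesenchymal genes reach 1384 FPKM.

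Some members moved with markers of other cell types and with OB markers. Each member was set against the myeloid, endothelial, chondrocyte, fibroblast and OB lists, and mostly the larger r are given here. For Snai1 r ran only from -0.422 to 0.352 over these lists. Of 10907 single genes, 98 had an r above 0.9 with Twist2. Twist2 was lowest in day 14 replicate 2 and highest in day 14 replicate 3, which also had the lowest and highest myeloid sums, 21.7 and 618 FPKM, and its r with the mean log2 level of the 10 myeloid markers was 0.905 (n = 6). Of these markers 1 of 10, Adgre1, was listed at 0 in day 14 replicate 2, and all 10 were above 0 in the other samples. Ptprc, which encodes the gated CD45, was between 0.134 and 2.99 FPKM. The r of Snai2 with the same list was -0.789, and that of Zeb2 with 10 endothelial markers was 0.902, although these summed to only 1.87 to 4.01 FPKM on day 10 and 5.66 to 10.2 FPKM on day 14, and 8 of them averaged under 1 FPKM. Twist2 and Snai2 had an r of -0.784 and 0.701 with the chondrocyte list. With the list of osteoblast genes and OB markers, r was -0.736 for Twist2, 0.598 for Snai2 and 0.586 for Twist1. For the other members it ran from -0.467 to 0.299. With 10 fibroblast markers, Zeb1 had an r of 0.702 and Twist2 of 0.671. These markers summed to 3542 to 4502 FPKM on day 10 and 3908 to 5805 FPKM on day 14, with a median log2 difference of 0.91 beside -0.04 over all genes. Of the 10, 3 had higher values on day 14 at an unadjusted p under 0.05, namely Ly6a, Cd34 and Col14a1, and 0 passed after adjustment. Over all genes 10.0% passed the unadjusted threshold in either direction. The samples of the days overlapped for all 10, and Lum and Dcn, the most abundant, differed by 0.04 and 0.29. Day and digestion differed together among the 6 samples, and the part of other cells in these levels was not tested.

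**Figure D5:**
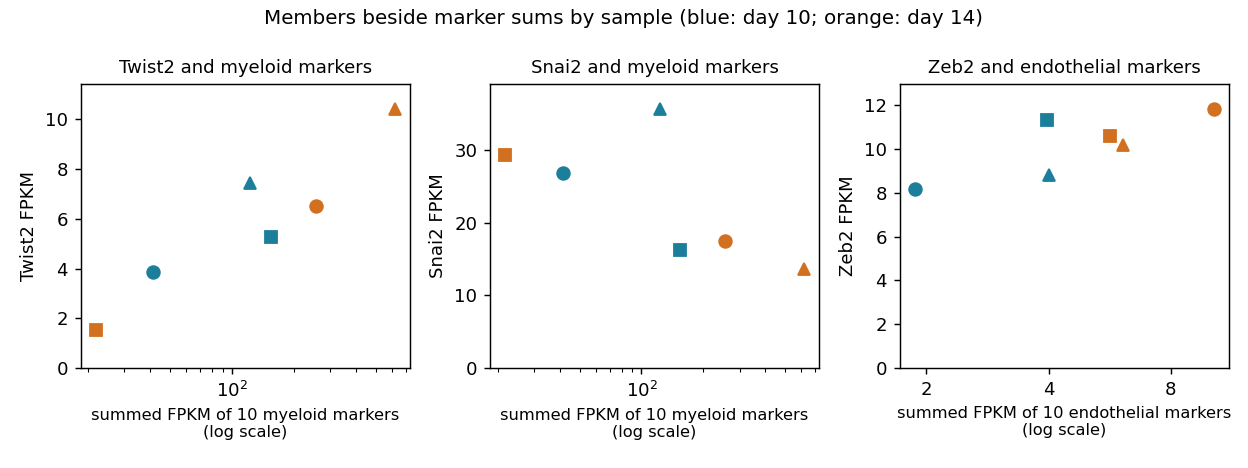
FPKM of Twist2, Snai2 and Zeb2 (y axes) against the summed FPKM of 10 myeloid or 10 endothelial markers (x axes, log scale), 1 point a sample (blue, day 10; orange, day 14; circle, square and triangle, replicates 1, 2 and 3). Twist2 is lowest at a myeloid sum of 21.7 FPKM and highest at 618 FPKM, both on day 14.

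The DNA word that Snail and Zeb proteins are known to bind, CAGGTG or its reverse complement CACCTG, was looked for in RefSeq promoters of the GRCm38.p6 build, which span the start of each gene and 300 bases in all. It was present in 20.2% of all 32851 promoters and in 22.6% of 27025 genes. Of the 4 members with a promoter in the table, namely Twist1, Twist2, Snai1 and Zeb2, only Snai1 held it. Only genes with a promoter window were counted, and Cdh1 had no window. Among epithelial genes 9 of 12 held the word (20 listed), and among polarity genes 7 of 10 (14 listed). It was in 0 of 7 mesenchymal genes (14 listed). It was also in 0 of 8 muscle genes, 0 of 6 myeloid genes, 0 of 5 E protein and Id genes and 0 of 3 relatives. In the remaining lists the share ran from 7.14% of corepressors to 33.3% of kinases and ubiquitin ligases. Among genes under 1 FPKM, at 1 to 10 FPKM, and at 10 FPKM or more, the share was 25%, 19.7% and 18%. These counts describe letters in a window and were not tested. The lists and the word were chosen for this known biology, and the proteins' binding was not measured.

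The following promoters show these differences, with each match in capitals, read 5′ to 3′ along the gene. In Snai1, at chr2:167537945-167538244 on the plus strand, the match begins 126 bases before the start. In Epcam, an epithelial adhesion gene at 0 to 0.708 FPKM, the window is chr17:87635729-87636028 on the plus strand and holds 2 matches, which begin 187 and 19 bases before the start. In Crb3 the window is chr17:57061951-57062250 on the plus strand and holds 4. In Vim, at chr2:13574061-13574360 on the plus strand, there is none.
Snai1: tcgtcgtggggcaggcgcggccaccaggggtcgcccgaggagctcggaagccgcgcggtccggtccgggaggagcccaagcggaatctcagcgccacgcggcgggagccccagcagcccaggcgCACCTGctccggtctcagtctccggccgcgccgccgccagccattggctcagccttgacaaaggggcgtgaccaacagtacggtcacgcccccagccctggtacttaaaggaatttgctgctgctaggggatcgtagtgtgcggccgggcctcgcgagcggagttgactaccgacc
Epcam: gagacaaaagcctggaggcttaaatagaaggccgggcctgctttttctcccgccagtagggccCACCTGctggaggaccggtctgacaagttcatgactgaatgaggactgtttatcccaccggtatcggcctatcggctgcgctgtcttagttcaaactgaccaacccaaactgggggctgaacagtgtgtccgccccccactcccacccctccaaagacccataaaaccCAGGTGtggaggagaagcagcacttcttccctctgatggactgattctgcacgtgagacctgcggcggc
Crb3: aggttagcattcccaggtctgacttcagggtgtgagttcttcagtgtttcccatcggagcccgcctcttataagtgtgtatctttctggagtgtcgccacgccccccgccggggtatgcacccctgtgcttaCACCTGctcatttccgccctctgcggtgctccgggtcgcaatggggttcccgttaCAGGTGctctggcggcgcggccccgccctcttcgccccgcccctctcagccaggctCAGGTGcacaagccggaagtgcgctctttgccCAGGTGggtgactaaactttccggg
Vim: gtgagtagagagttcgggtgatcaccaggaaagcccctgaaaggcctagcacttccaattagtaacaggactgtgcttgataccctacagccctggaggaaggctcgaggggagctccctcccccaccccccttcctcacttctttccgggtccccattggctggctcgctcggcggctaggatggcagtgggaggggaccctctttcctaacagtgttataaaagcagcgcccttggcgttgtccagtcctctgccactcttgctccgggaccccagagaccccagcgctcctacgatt

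Zeb1 and Zeb2 transcripts are known targets of the miR-200 family of microRNAs, which falls into 2 groups by seed, the bases 2 to 8 that pair with a target. The mature sequences from RefSeq are shown with the seed in capitals because the seeds differ by a base. In these files the 5 hairpin genes were listed at 0 in all 6 samples, which says nothing of the mature forms, since libraries of long RNA do not measure RNAs of that size. They were chosen after the values were seen.
mmu-miR-141-3p: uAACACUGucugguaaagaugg
mmu-miR-200a-3p: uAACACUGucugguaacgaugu
mmu-miR-200b-3p: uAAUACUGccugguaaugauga
mmu-miR-200c-3p: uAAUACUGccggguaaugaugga
mmu-miR-429-3p: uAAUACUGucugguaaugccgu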

How the data were processed

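The authors sorted ECFP+ OBs by flow cytometry and sequenced 75-base single-end reads. They called bases with Casava 1.8.2 and mapped to mm10 with TopHat2 2.0.13, Bowtie2 2.2.3 and SAMtools 0.1.19. They then deposited FPKM per gene from Cufflinks 2.2.1, 1 file per sample. The gene annotation they used is not given in the sources used here. In day 14 replicate 2, 25 symbols turned into dates were restored by position. Coordinates are those of GENCODE vM21, to which 20911 symbols matched.

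FPKM are not counts, so limma 3.58.1 (R 4.3.3; lmFit, and eBayes with a trend) was run on log2(FPKM + 0.1) over genes with a mean above 0.1 FPKM, with Benjamini-Hochberg adjustment over all of them. Paralog ratios used two-sided exact permutation tests over samples. Reads were estimated from 1977 genes with a fragment length of 230 bases, under which 74.9% to 79.3% of low values came within 0.1 of whole reads. Depth thus rests on this estimate, and intervals cover counting error only. P-values measure the spread between these samples, which may be technical in part.

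The members and lists were chosen with earlier results of these data known. Genes named are the 6 members, up to 4 genes of each pathway list with the smallest p at a mean of at least 1 FPKM, some fixed genes such as Cdh1 and Runx2, the leading cell type markers, and the 3 genes with the highest r for each member, 1 of which is not reported here. Snai3, Tcf3, Tcf4, Crb3, Epcam, Adgre1, Ptprc, Alpl, Foxc2, Fn1, Mmp2, Ly6a, Cd34, Col14a1, Tgfb1, Smad3, Hmga2 and the 5 miRNA genes fall outside this rule and were chosen after their values were seen. Other settings changed the pseudocount, filter, scaling, variance trend, replicate block or mean, or left out a sample.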

Additional observations from a re-analysis of the deposited data

How the results depend on the processing

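Twist1, Snai2 and Zeb2 kept their direction under all 15 alternatives, and no member passed the threshold under any, with adjusted p from 0.416 to 0.999. Leaving out 1 sample at a time moved the log2 difference of Twist1 from -0.43 to -0.02, of Twist2 from -0.73 to 0.62, of Snai1 from -0.48 to 0.13, of Snai2 from -0.69 to -0.13, of Zeb1 from -0.03 to 0.40 and of Zeb2 from 0.12 to 0.35. Twist2 turned to 0.07 without day 10 replicate 3 and to 0.62 without day 14 replicate 2, and to 0.15 as a ratio of arithmetic means. Snai1 turned to 0.13 without day 14 replicate 1, and Zeb1 to -0.03 without day 14 replicate 3. The ratio differences ran from -0.57 to 0.97 for Twist, from -0.68 to 0.35 for Snail and from -0.24 to 0.29 for Zeb. The Twist ratio turned to -0.16, -0.14 and -0.57 without day 10 replicate 2, day 14 replicate 1 and day 14 replicate 3. The Snail ratio turned to 0.35 and 0.24 without day 10 replicate 3 and day 14 replicate 3, and the Zeb ratio to -0.04 and -0.24 without day 10 replicate 3 and day 14 replicate 1.

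Leaving out a sample gave 3 to 76 genes with an adjusted p under 0.05, and 937 to 2559 with an unadjusted p under 0.05. The 76 came without day 14 replicate 2, which left day 14 replicates 1 and 3, low in OB markers. For the pathway lists, leaving out a sample gave 7 to 26 genes. Without the variance trend this list count was 7, and with the replicate block it was 23, where 14 was reported. Deviations of same-numbered samples had r of 0.058, -0.00584 and 0.0887. No pairing by number was thus seen, though these values cannot show that there was none. With the replicate block, Snai2 had a log2 difference of -0.38 (adjusted p = 0.788, limma), and 2 genes in all passed. Of 22 list genes under 15 alternatives, 0 of 330 values changed direction. Many of these genes were named for a small p in the same samples, so their direction was likely to hold. The cause of the shifts between settings was not tested. With 3 samples a day, changes inside the limma intervals printed for the members were not excluded. These intervals do not give the smallest change that could have been detected, which was not tested.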
